A study of Mus musculus with 47 samples.

Results

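The genes described here encode the nuclear part of the oxidative phosphorylation machinery in inguinal white adipose tissue (iWAT) of mice. They were taken from the array by name: every non-control spot whose gene symbol began with Nduf, Uqcr or Atp5, was Sdha, Sdhb, Sdhc, Sdhd, Cyc1 or Cycs, or was Cox followed by a digit from 4 to 8. The rule found 85 genes on 120 probes, out of 21512 genes with a symbol. They comprised 35 subunits of complex I, 4 of complex II, 8 of complex III, 17 of complex IV and 15 of complex V, the electron carrier Cycs, and 5 genes whose products are not subunits (Ndufaf1, Ndufa12l, Atp5s, Cox4nb and Cox7a2l). Of the 17 complex IV genes, 6 encode isoforms restricted to certain tissues. Both Cox4i2 (mean Cy5 signal 93.9) and Cox8c (mean Cy5 signal 70.3) stayed under 2 times the local background, which left 83 measured members.

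Oxidative phosphorylation takes place in the inner mitochondrial membrane. Complexes I and II pass electrons from NADH and succinate to ubiquinone, complex III passes them on to cytochrome c, complex IV hands them to oxygen, and complex V (ATP synthase) uses the proton gradient so built to make ATP. White adipocytes hold few mitochondria, whereas brown and brown-like adipocytes are packed with them and spend the gradient as heat through Ucp1. Part of complex IV comes in isoforms of heart, muscle and brown fat, among them Cox6a2, Cox7a1 and Cox8b.

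RNA of 47 mice on a C57/BL6;129Svj background was hybridised, 1 mouse per array, with Cy5 on the mouse and Cy3 on a common pool made from all the Cy3-labelled cRNAs, with no dye swap. From 5 to 19 weeks of age the mice ate for 14 weeks a diet with 1500 IU vitamin A per kg, either as such (control diet) or with 150 mg beta-carotene per kg (BC diet). Females were WT on control diet (n = 6), WT on BC diet (n = 6), Bcmo1-null on control diet (n = 6) and Bcmo1-null on BC diet (n = 6), and males had the same 4 groups with 6, 5, 6 and 6 mice. Bcmo1 encodes the enzyme that cleaves beta-carotene into retinal, and the null mice lack it in every cell. The WT mice were a first-generation cross of the mixed background, so that an effect of the deletion and one of breeding cannot be told apart. On the Bcmo1 probe the signal was 1.47 to 1.72 times the background in the 8 groups, so the deletion could not be checked there.

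Each value below is a log2 ratio of mouse over pool, and only ratios of the same probe are set against each other. Median Cy5 signals ran from 130 to 277 per array against backgrounds of 51 to 56, and the number of mice limits the precision. A member was called when limma gave an unadjusted p under 0.01, and adjusted p-values are over all probes tested. Counts at an unadjusted p under 0.05 stand without a share of all genes, which was not computed. Whole pieces of tissue were used, in which fewer cells of a type and less RNA per cell cannot be told apart. On 2 of the female arrays the median log2 ratio of 15 skeletal muscle markers was above 0 (Bcmo1-null control diet mouse 1, at 1.60, and Bcmo1-null BC diet mouse 1, at 2.14), and counts in females are also given without them. Every male group held arrays above 0 too. The highest was 2.22 and 2.32 in WT and 1.52 and 1.87 in Bcmo1-null males, on control and BC diet. Counts in males were not computed without such arrays. The WT females on control diet enter the diet, genotype and sex comparisons alike, so those results share 6 mice.

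Promoters of the members that passed an adjusted p of 0.05 between female genotypes on control diet are shown because these genes differ in what their promoters hold. RefSeq sequences (build GRCm38.p6) of 250 bases before to 50 after a start were found for 65 of the 85 members, as 70 promoters. Capitals mark matches on either strand to the NRF-1 core GCGCANGC, the GABP motif CCGGAAG, the YY1 motif AAGATGGC or the ERR motif AAGGTCA, and where an NRF-1 match overlaps another NRF-1 match the capitals run together. The promoters lie at chr13:86046746-86047045 (minus strand), chr7:30183921-30184220 (plus), chr9:108936398-108936697 (plus), chr9:50603800-50604099 (minus) and chr17:56717512-56717811 (plus).
Cox7c: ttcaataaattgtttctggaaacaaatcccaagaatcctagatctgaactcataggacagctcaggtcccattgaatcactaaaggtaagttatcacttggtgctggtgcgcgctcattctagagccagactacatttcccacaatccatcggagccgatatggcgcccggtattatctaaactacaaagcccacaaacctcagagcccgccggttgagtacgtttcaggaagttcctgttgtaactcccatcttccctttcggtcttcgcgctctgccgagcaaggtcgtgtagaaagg
Cox7a1: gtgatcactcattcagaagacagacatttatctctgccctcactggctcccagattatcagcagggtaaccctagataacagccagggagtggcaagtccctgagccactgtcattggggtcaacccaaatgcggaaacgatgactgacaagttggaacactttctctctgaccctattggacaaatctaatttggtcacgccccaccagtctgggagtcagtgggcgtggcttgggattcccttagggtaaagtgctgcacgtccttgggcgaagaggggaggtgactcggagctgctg
Uqcrc1: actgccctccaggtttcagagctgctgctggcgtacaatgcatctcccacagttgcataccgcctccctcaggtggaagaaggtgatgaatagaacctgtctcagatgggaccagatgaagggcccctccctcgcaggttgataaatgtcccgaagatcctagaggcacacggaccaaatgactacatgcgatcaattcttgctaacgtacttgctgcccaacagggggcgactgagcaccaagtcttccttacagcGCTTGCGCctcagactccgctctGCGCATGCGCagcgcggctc
Sdhd: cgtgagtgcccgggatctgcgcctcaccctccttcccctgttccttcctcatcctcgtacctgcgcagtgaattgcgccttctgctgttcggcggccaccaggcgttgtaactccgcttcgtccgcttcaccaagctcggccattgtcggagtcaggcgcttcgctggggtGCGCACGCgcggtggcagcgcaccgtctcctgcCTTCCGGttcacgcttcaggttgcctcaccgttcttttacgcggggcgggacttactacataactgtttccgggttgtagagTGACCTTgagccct
Ndufa11: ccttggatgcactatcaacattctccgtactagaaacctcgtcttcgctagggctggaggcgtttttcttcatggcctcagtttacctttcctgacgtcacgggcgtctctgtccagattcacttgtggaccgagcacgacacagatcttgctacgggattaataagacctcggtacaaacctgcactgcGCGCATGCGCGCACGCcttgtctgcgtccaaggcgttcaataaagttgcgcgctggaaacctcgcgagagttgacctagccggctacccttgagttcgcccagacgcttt

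The NRF-1 core was found in 24 of the 70 member promoters (34.3%) and in 9.95% of all 32851 promoters of the same length. A longer form, with GC added to the 3′ end of the core, was searched first and replaced by the core after its shares (25.7% of member promoters and 4.6% of all) were known. For the GABP motif the shares were 22.9% and 8.86%, for the YY1 motif 12.9% and 2.75%, and for the ERR motif 11.4% and 4.72%. Uqcrc1 and Ndufa11 held 3 overlapping or neighbouring matches to the NRF-1 core each, and Sdhd held NRF-1, GABP and ERR matches. Cox7c and Cox7a1, whose differences were the largest among the called members, held none of the 4 motifs in this window. Ndufa12 and Cox7b, called in the same comparison with smaller differences, also held none. A link between motifs and the size of a difference was not tested. None of the 3 restricted isoforms with a sequence held one either, whereas 7 of 31 complex I genes held the YY1 motif. A match is a description of letters, not of a bound site.

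Over the 8 groups, WT females on control diet stood highest. Their mean was the highest of all groups for 47 of the 83 members, against 8.83% of all genes. WT males on control diet had the lowest mean for 35 members, against 11.4% of all genes. The median over all subunits was 0.24 ± 0.13 (SD, n = 6) in WT females on control diet, 0.12 ± 0.15 (n = 6) on BC diet, 0.01 ± 0.17 (n = 6) in Bcmo1-null females on control diet and 0.09 ± 0.11 (n = 6) on BC diet. In males the same median was -0.06 ± 0.06 (n = 6), 0.01 ± 0.12 (n = 5), -0.02 ± 0.12 (n = 6) and 0.06 ± 0.13 (n = 6) in the same order. The ranges of the 4 female groups overlapped.

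**Figure D1:**
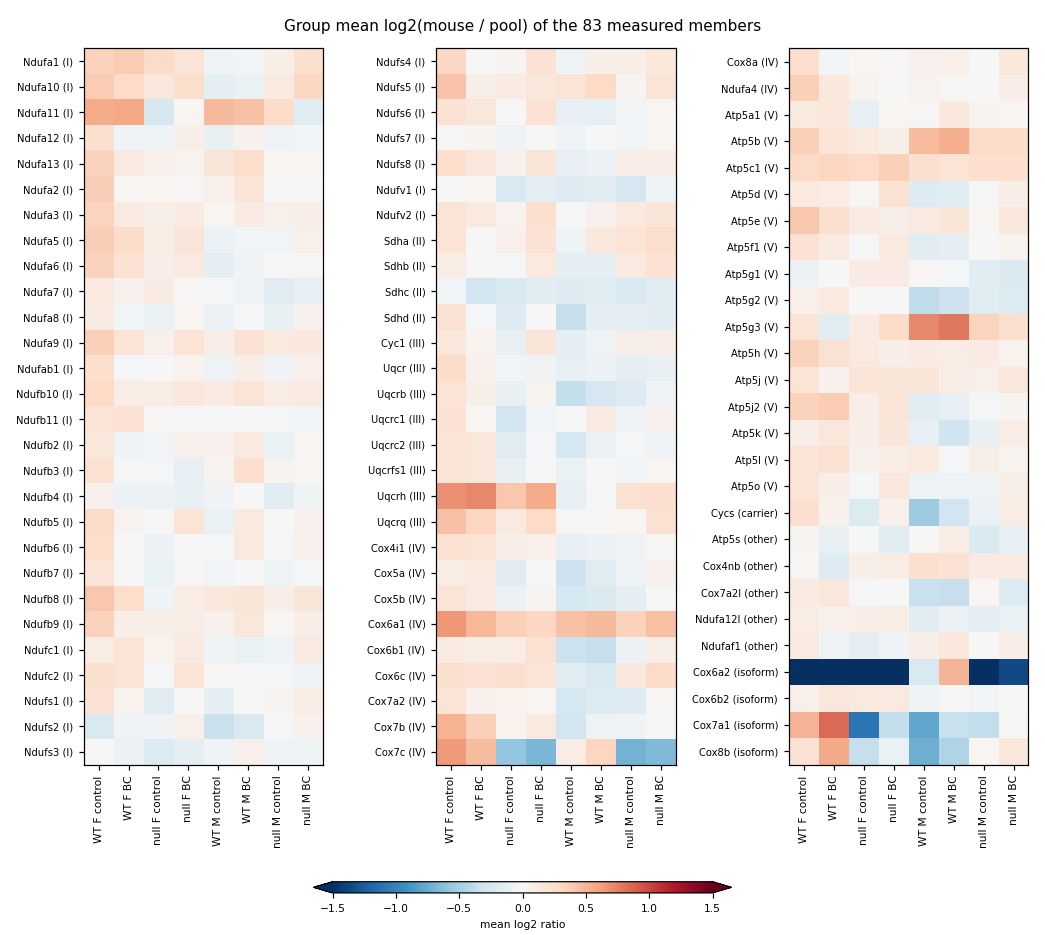
Mean log2 ratio of mouse over pool (colour) of the 83 measured members (rows, with their complex) in the 8 groups (columns). The column of WT females on control diet is the reddest of the female groups for most subunits, Cox7c is blue in the 4 Bcmo1-null groups, and Cox6a2 runs past the colour scale.

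**Figure D2:**
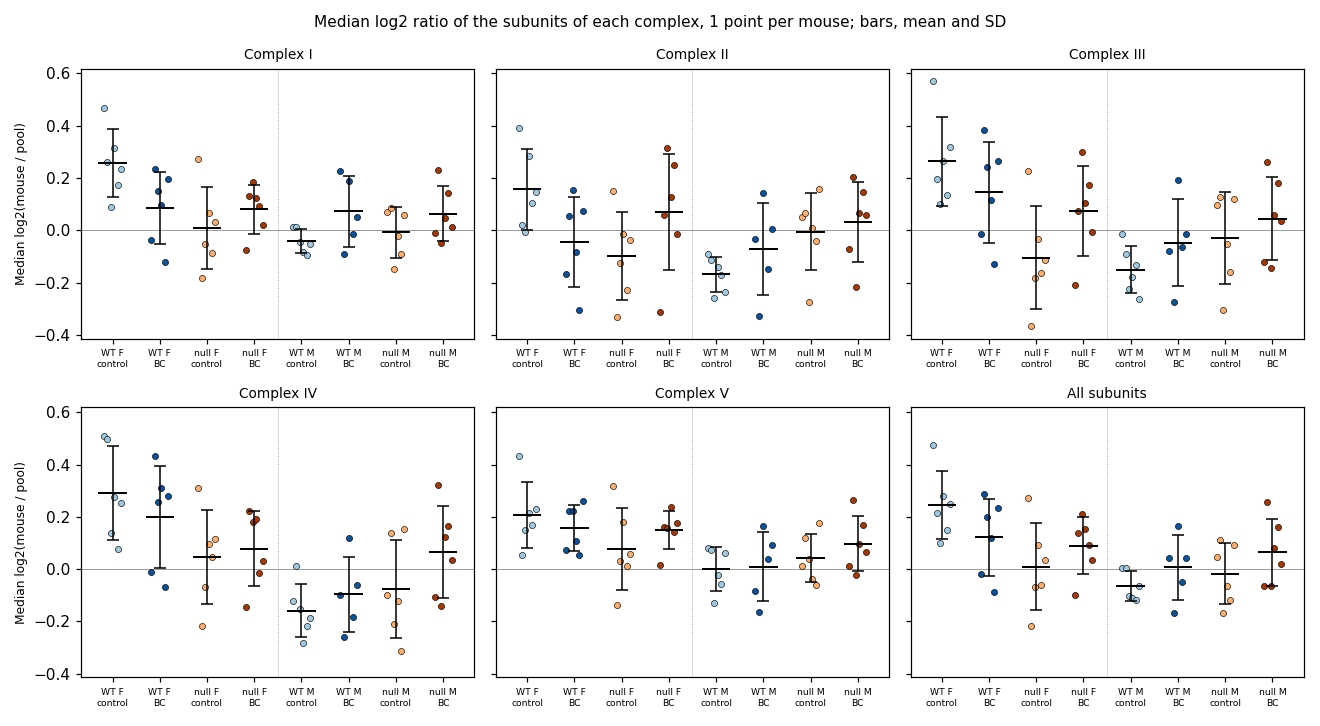
Median log2 ratio over the subunits of each complex, without the restricted isoforms, and over all subunits, with those isoforms included. There is 1 point per mouse, with bars for the mean and SD of each group. Over all subunits WT females on control diet averaged 0.24 and WT males on control diet -0.06.

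The first comparison asked what the deletion changed in females on control diet. Members were lower in Bcmo1-null mice: 19 of 83 were called, all lower, while 4.72% of all genes were called (2.62% lower and 2.1% higher). In all 76 of the 83 were below 0, against 52.6% of all genes, and their median log2 difference was -0.24, against -0.01 over all genes. The called members were 8 of complex I, 1 of complex II, 4 of complex III, 4 of complex IV, Cycs and the assembly factor Ndufaf1, with none of the 15 subunits of complex V (limma gave 6 of them lower and 1 higher at an unadjusted p under 0.05). The median difference was -0.25 for complex I, -0.17 for complex II, -0.32 for complex III, -0.27 for complex IV without restricted isoforms and -0.13 for complex V. After adjustment 5 members passed 0.05, Cox7c, Cox7a1, Ndufa11, Uqcrc1 and Sdhd, while 1.89% of all genes did.

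Complex I, the entry point for electrons from NADH, was represented by Ndufa11, a subunit of its membrane arm. Ndufa11 ran from -0.33 over a median of 0.58 to 1.12 in WT and from -0.70 over -0.23 to 0.20 in Bcmo1-null mice. The ranges overlapped through 1 low WT mouse and the difference was -0.80 ± 0.19 (SE, limma, adjusted p = 0.022). With all 47 arrays in the fit this call was lost (adjusted p = 0.258). That fit held Bcmo1-null control diet male 1, where Ndufa11 was 3.21, against -0.00 in the nearest mouse of its group. The part of that mouse in the loss was not tested. Ndufs1, which carries iron-sulphur clusters of the NADH-oxidising arm, differed by -0.38 ± 0.11 (limma, adjusted p = 0.0977), and Ndufb8, a membrane arm subunit, by -0.46 ± 0.13 (adjusted p = 0.079).

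Complex II, which also serves the citrate cycle, has 4 subunits and all of them were below 0. Sdhd, a membrane anchor, lay between -0.06 and 0.45 in WT (median 0.24) and between -0.43 and 0.02 in Bcmo1-null mice (median -0.17). These ranges overlapped slightly, with a difference of -0.42 ± 0.11 (SE, limma, adjusted p = 0.038).

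All 8 subunits of complex III were below 0. Uqcrc1, a core protein, ran from 0.03 over 0.21 to 0.44 in WT and from -0.53 over -0.31 to 0.10 in Bcmo1-null mice, a difference of -0.49 ± 0.12 (SE, limma, adjusted p = 0.0302). Only the highest Bcmo1-null mouse reached into the WT range. Its partner core protein Uqcrc2 ran from 0.07 over 0.16 to 0.47 in WT and from -0.32 over -0.17 to -0.03 in 5 Bcmo1-null mice, 1 spot having been set aside as an outlier. Here the groups did not overlap, and the difference was -0.37 ± 0.10 (limma, adjusted p = 0.0614). Cycs, the carrier between complexes III and IV, differed by -0.47 ± 0.14 (limma, adjusted p = 0.101).

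No core gene of complex V was called. Atp5a1 and Atp5b, the catalytic alpha and beta subunits, differed by -0.28 ± 0.10 (SE, limma, adjusted p = 0.232) and -0.21 ± 0.11 (adjusted p = 0.536), and Atp5c1, the central stalk, by 0.01 ± 0.08 (adjusted p = 0.996). The regulator Ppargc1a, a coactivator of mitochondrial genes, differed by -0.53 ± 0.30 (adjusted p = 0.609).

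Complex IV held the largest differences among the called members. Cox7c, a small nuclear-encoded subunit, ran from 0.33 over 0.64 to 0.93 in WT and from -0.87 over -0.66 to -0.08 in Bcmo1-null mice. No Bcmo1-null mouse reached the lowest WT mouse, and the difference was -1.23 ± 0.13 (SE, limma, adjusted p = 1.97e-06). Cox7a1, the heart, muscle and brown fat form of subunit 7a, ran from 0.23 over 0.39 to 1.02 in WT and from -1.84 over -1.19 to 0.14 in Bcmo1-null mice. These groups did not overlap either, with a difference of -1.61 ± 0.27 (limma, adjusted p = 0.000974). The ubiquitous partner Cox7a2 differed by -0.14 ± 0.12 (adjusted p = 0.808), and Cox4i1, the regulatory subunit 4, by -0.13 ± 0.11 (adjusted p = 0.781). The fourth member whose groups did not overlap, beside Uqcrc2, was Atp5g1, which encodes the c ring of complex V and was 0.22 higher without being called (limma, adjusted p = 0.448), and 2.02% of all genes did not overlap.

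**Figure D3:**
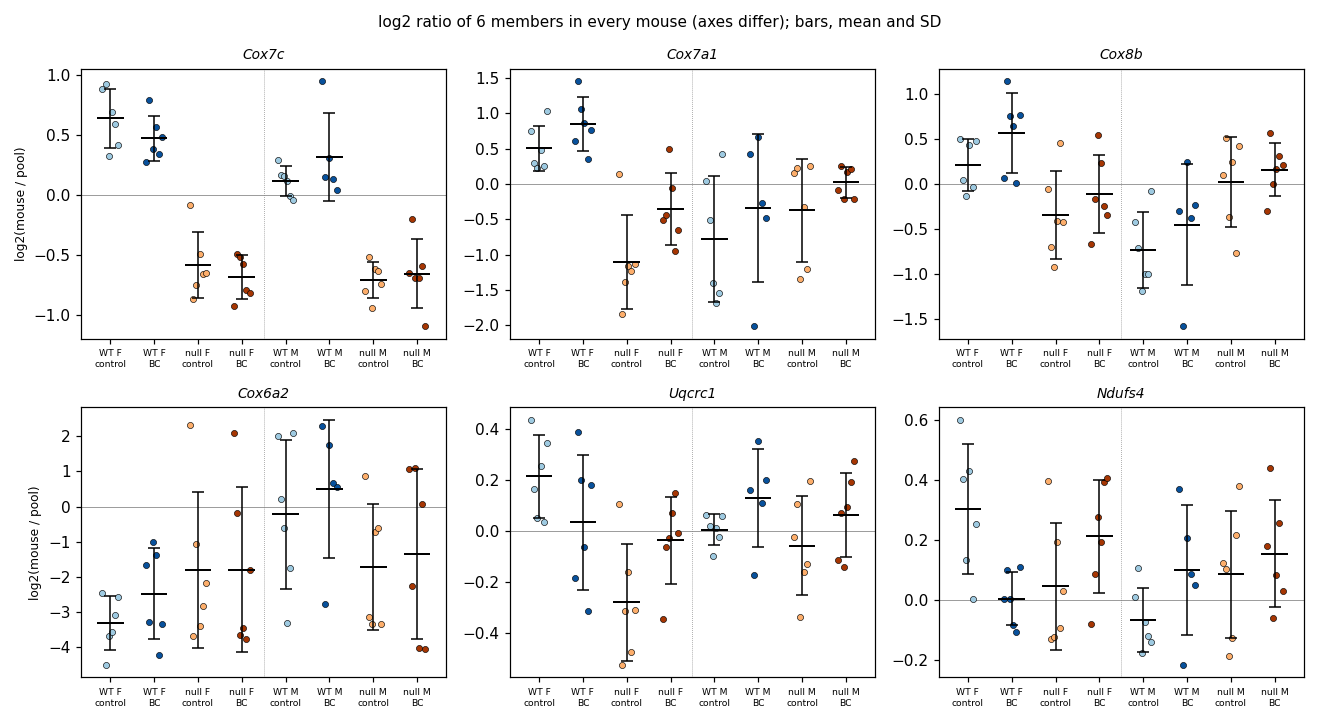
Log2 ratio of mouse over pool for 6 members, with 1 point per mouse and bars for the mean and SD of each group (axes differ between panels). Cox7c separates the genotypes in both sexes, Cox7a1 separates the females on control diet, and Cox6a2 spreads from -4.53 to 2.32.

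Markers of brown adipocytes moved with this comparison. Of 10 brown adipocyte markers 7 were called lower in Bcmo1-null mice, with a median difference of -1.54. Ucp1, which uncouples the proton gradient, averaged 0.88 (0.05 to 2.02) in WT and -2.78 (-3.51 to -1.97) in Bcmo1-null mice. The median log2 ratio of the list ran from -0.00 to 1.00 in WT and from -1.45 to -0.16 in Bcmo1-null mice. With this score as a covariate, an alternative chosen after seeing the data, 1 member was called lower and the median difference over the members was -0.07, with 2.19% of all genes called. The score did not overlap between the genotypes, so genotype and score cannot be told apart in this fit. The 15 muscle markers had a median difference of 1.24. Without the 2 muscle-rich arrays 40 members were called lower, with 6.25% of all genes called, and with the slide as a block 7 were called. On the 3 slides that held both groups the median over all subunits differed by -0.22 to -0.16. Leaving out 1 mouse at a time gave between 10 and 38 called members. The count was 11 without WT control diet mouse 1, 10 without Bcmo1-null control diet mouse 2 and 38 without Bcmo1-null control diet mouse 1. For the slide as a block and for left-out mice the share of all genes called was not computed.

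Among neighbouring pathways on control diet, 5 of 17 genes of pyruvate dehydrogenase and the citrate cycle were called lower (median -0.30). Suclg1, a subunit of succinyl-CoA ligase, differed by -0.63 ± 0.09 (SE, limma, adjusted p = 0.000276), and Cs, citrate synthase, by -0.45 ± 0.14 (adjusted p = 0.131). Of 75 mitochondrial ribosome genes 2 were called lower and 1 higher (median -0.09), and of 19 assembly genes 2 were called higher while 15 were below 0 (median -0.11). The median was -0.04 over 17 regulators and -0.02 over 6 carriers.

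On BC diet the genotypes differed in fewer members. Of the 83 members 5 were called lower and 1 higher, while 10.1% of all genes were called (3.42% lower and 6.67% higher), and 48 were below 0, against 51.1% of all genes. Adjustment left Cox7c and Cox7a1, while 5.31% of all genes passed it. Cox7c ran from 0.28 over 0.43 to 0.80 in WT and from -0.93 over -0.69 to -0.49 in Bcmo1-null females, again without overlap, a difference of -1.16 ± 0.13 (SE, limma, adjusted p = 4e-06). Cox7a1 differed by -1.21 ± 0.27 (adjusted p = 0.00923), from a WT range of 0.35 to 1.46 and a Bcmo1-null range of -0.95 to 0.49. Called lower without passing adjustment were Ndufb11, Ndufa11 and Cox8b, the brown fat and muscle form of subunit 8, and Cox4nb was called higher. The median difference over the 83 members was -0.02. Of the members 2 did not overlap between the groups, Cox7c and the complex V gene Atp5g2, against 3.86% of all genes. Of 10 brown adipocyte markers 7 were called lower and 1 higher, with a median difference of -1.21. With their score as a covariate 1 member was called lower and 1 higher, the median over the members was 0.12, and 3.18% of all genes were called. Without the 2 muscle-rich arrays 3 members were called lower and 1 higher, with 13.7% of all genes called. Median centring in place of loess turned the split to 2 lower and 6 higher.

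The next comparison asked what the BC diet changed in WT females. Only Ndufa12 and Ndufs4 of the 83 members were called, both lower, while 9.28% of all genes were called (7.04% lower and 2.24% higher), and neither passed adjustment, which 1.04% of all genes did. The median difference was -0.11, with 62 of 83 members below 0, against -0.01 and 51.1% over all genes. By complex the median was -0.14 for I, -0.22 for II, -0.11 for III, -0.14 for IV without restricted isoforms and -0.03 for V. At an unadjusted p under 0.05 limma gave 14 members, all lower, 9 of them in complex I. The share of all genes at that threshold was not computed.

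Ndufa12, an accessory subunit of complex I, ran from 0.02 over 0.24 to 0.49 on control diet and from -0.15 over -0.09 to 0.08 on BC diet, a difference of -0.30 ± 0.09 (SE, limma, adjusted p = 0.0799). Ndufs4, a subunit needed to assemble the NADH-oxidising arm, ran from 0.01 over 0.33 to 0.60 and from -0.11 over 0.01 to 0.11, a difference of -0.30 ± 0.11 (adjusted p = 0.111). Both pairs of ranges overlapped, and no member separated the diets completely, against 2.34% of all genes. Of 13 white adipocyte markers 3 were called lower (median -0.45), and their part in the result was not tested. Of 10 brown adipocyte markers 2 were below 0 and 1 was called lower (median 0.40). Ucp1 averaged 0.88 on control diet and 1.82 on BC diet. With the brown adipocyte score as a covariate, chosen after seeing the data, 2 members were called lower, with 6.77% of all genes called. The median over the members was then -0.17, and limma gave 22 lower at an unadjusted p under 0.05, again without a share of all genes. All 15 muscle markers (median 0.79) and all 16 lymphocyte markers (median 0.75) were above 0 without being called. With the lymphocyte, mammary and muscle scores as covariates limma called no member (2 lower at an unadjusted p under 0.05). For that fit the share of all genes called was not computed. Without the 2 muscle-rich arrays, which are not among these mice, 7 members were called lower and 11.5% of all genes were called. Ndufs4, at an unadjusted p of 0.00989, was also not called without background correction, with Cy5 alone, with the slide or the replicate number as a block or by the methods' t-test, and Ndufa12 was not called with Cy5 alone. Leaving out 1 mouse at a time gave 0 to 5 called members, with 0 without WT control diet mouse 1 and 5 without WT control diet mouse 3. Median centring in place of loess gave 46 called members, all lower. The median was then -0.37 over the members and -0.06 over all genes, and the share of all genes called was not computed.

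In Bcmo1-null females no member was called for diet, and limma gave 5 higher and 1 lower at an unadjusted p under 0.05, while 0.396% of all genes were called. The median difference was 0.09, with 22 of 83 members below 0, against 49.7% of all genes. The ranges on both diets overlapped for every member, and 0.0304% of all genes did not overlap. The interaction of genotype and diet was called, higher, for Ndufa12 (0.44, limma, adjusted p = 0.356), Ndufb5 (0.43, adjusted p = 0.369) and Ndufs4 (0.47, adjusted p = 0.376), none of which passed adjustment. Its median was 0.19 over the members, and 2.57% of all genes were called. Without the 2 muscle-rich arrays 7 members were called higher for diet in Bcmo1-null females (median 0.19; 0.867% of all genes) and 17 for the interaction, with 7.45% of all genes. With the lymphocyte, mammary and muscle scores as covariates 9 were called higher for each, and the share of all genes called was not computed. Of 10 brown adipocyte markers 3 were called higher on BC diet in Bcmo1-null females (median 0.65), and Ucp1 averaged -2.78 on control diet and -1.06 on BC diet, a difference of 1.72 ± 0.45 (SE, limma, adjusted p = 1). With the brown adipocyte score as a covariate 0 members were called for diet in these mice (limma gave 2 lower at an unadjusted p under 0.05), and the median over the members was 0.01.

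**Figure D4:**
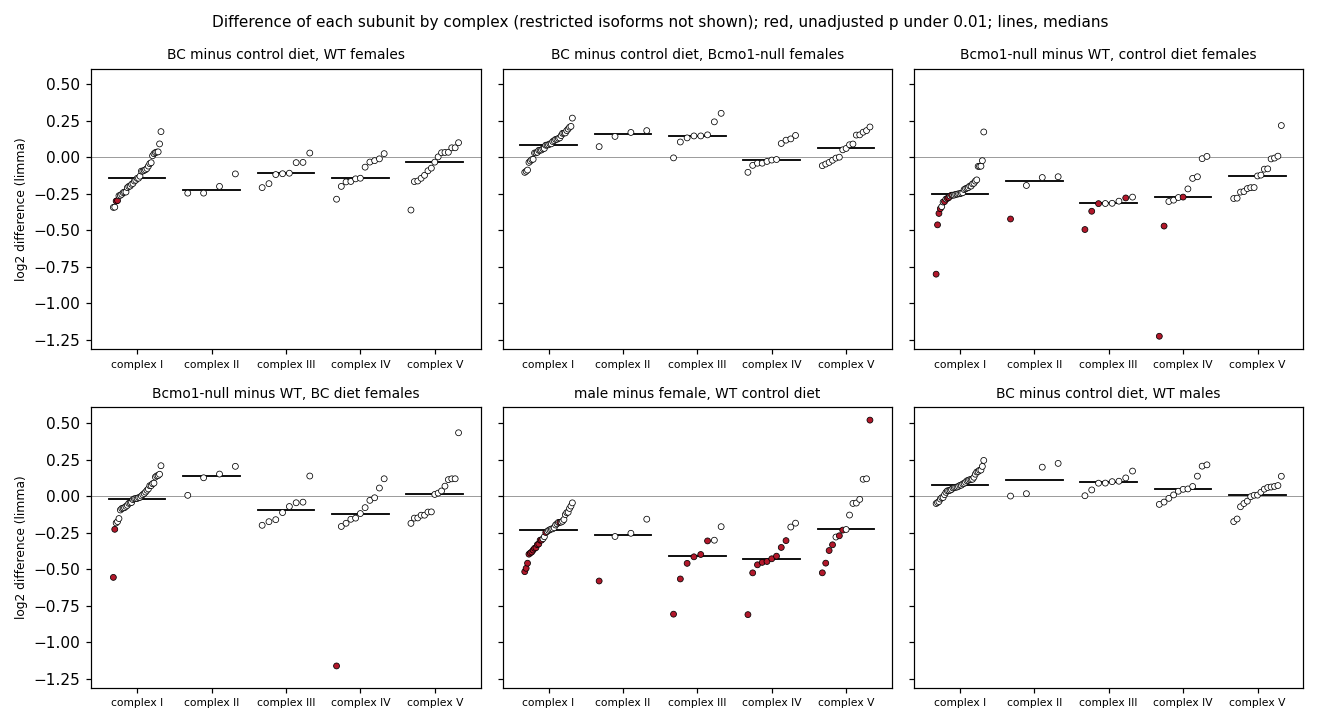
Log2 difference of each subunit by complex in 6 comparisons, without the restricted isoforms, with a line at the median of each complex and red points at an unadjusted p under 0.01. For Bcmo1-null minus WT on control diet, complex III has a median of -0.32, and for male minus female the medians of complexes III and IV are -0.41 and -0.43.

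Males had few calls by diet. No member was called in WT males (limma gave 3 higher at an unadjusted p under 0.05; 0.1% of all genes called). The median was 0.06, with 17 of 83 members below 0, against 50.7% of all genes. All 10 brown adipocyte and all 15 muscle markers were above 0 in these mice (medians 0.44 and 1.00), without being called. All 15 lymphocyte markers were below 0 (median -0.93), also without a call. The part of the brown adipocyte markers was not tested. In Bcmo1-null males Ndufa8, a subunit of complex I, was called higher by 0.18 (limma, adjusted p = 0.983), with 0.478% of all genes called. Their median was 0.07, with 17 of 83 members below 0, against 54.7% of all genes. The diets' ranges overlapped for every member in WT and in Bcmo1-null males, where 0.054% and 0.0694% of all genes did not overlap. The interaction of genotype and diet had 0 called members (limma, and 0 at an unadjusted p under 0.05 as well), with 0.116% of all genes called.

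Between male genotypes on control diet 28.9% of all genes were called (12.4% lower and 16.5% higher) and on BC diet 26.9% (12.4% lower and 14.5% higher). Of the 83 members 6 were called on control diet and 7 on BC diet, a smaller share. On control diet Cox7c was called lower, and Cycs, Uqcrh, Cox6c, Cox7a2l and Cox8b higher. Cycs differed by 0.43 ± 0.13 (SE, limma, adjusted p = 0.0167), which was opposite in sign to females on control diet, and this change of sign was not tested. On BC diet Cox7c and Atp5g3 were called lower and 5 members higher, led by Cox6c, a complex IV subunit, at 0.52 ± 0.11 (adjusted p = 0.00242). Cox6c ran from -0.58 to -0.06 in WT and from 0.09 to 0.55 in Bcmo1-null males, without overlap, which beside Cox7c held for no other member on BC diet and for 11.7% of all genes. All 15 measured lymph node lymphocyte markers were called higher in Bcmo1-null males on both diets (medians 2.51 and 2.71), as were 5 of 8 macrophage markers. Of 13 white adipocyte markers 5 and 3 were called lower, and of 10 brown adipocyte markers 4 were called higher on control diet and none on BC diet. With the lymphocyte, mammary and muscle scores as covariates 1 member was called on control diet and 2 on BC diet. For that fit the share of all genes called was not computed. On control diet the lymphocyte score ran from -3.03 to 0.28 in WT and from 0.40 to 1.48 in Bcmo1-null males. Genotype and that score cannot be told apart there. With the brown adipocyte score as a covariate, an alternative chosen after seeing the data, 3 members were called lower and none higher on control diet and 7 lower and 1 higher on BC diet, with 19.6% and 20.8% of all genes called, and the part of the white adipocyte and macrophage markers was not tested. With the deposited ratio in place of loess on the scanner signals, the control diet calls were 5 lower and none higher.

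Cox7c was lower in Bcmo1-null mice in each of the 4 sex and diet comparisons, and no range overlapped, which held for 2.02% and 3.86% of all genes in females and 12.5% and 11.7% in males on control and BC diet. In males on control diet it ran from -0.04 over 0.14 to 0.29 in WT and from -0.94 over -0.69 to -0.52 in Bcmo1-null mice, a difference of -0.83 ± 0.14 (SE, limma, adjusted p = 0.000247). On BC diet the 5 WT males were at 0.96, 0.15, 0.31, 0.14 and 0.05, and the Bcmo1-null males ran from -1.10 over -0.67 to -0.20, a difference of -0.98 ± 0.14 (adjusted p = 8.92e-05). Median centring in place of loess took the adjusted p of the control diet difference in males to 0.123. The Cox7c probe lies at chr13:86518268-86519145 in the arrays' own annotation (build mm8). An unnamed probe described as a partial Cox7c transcript, at chr13:86519703-86519762 (mm8), went the other way. Its difference was 0.49 ± 0.11 (adjusted p = 0.023) in females and 0.98 ± 0.10 (adjusted p = 1.26e-06) in males on control diet, and 0.28 (adjusted p = 0.147) in females and 1.00 (adjusted p = 1.85e-06) in males on BC diet. It was not a member by name.

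Sex differences in WT mice on control diet were the broadest. Members were lower in males: 42 of 83 were called lower and 2 higher, against 14.8% and 11.8% of all genes (26.7% in all). After adjustment 45 lower and 2 higher passed 0.05, while 28.3% of all genes did. Of the 83 members 78 were below 0, against 55.3% of all genes, with a median difference of -0.28 against -0.04. In complex I 15 of 35 subunits were called lower, in complex II 1 of 4, in complex III 6 of 8, in complex IV without restricted isoforms 9 of 11, and in complex V 6 of 15 lower and 1 higher. The median was -0.24 for I, -0.41 for III and -0.43 for IV without restricted isoforms. Groups did not overlap for 22 of 83 members and for 13.6% of all genes.

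Uqcrh, the hinge protein of complex III, ran from 0.48 over 0.70 to 0.85 in females and from -0.36 over -0.09 to 0.11 in males, a difference of -0.81 ± 0.10 (SE, limma, adjusted p = 1.53e-07). Cycs ran from 0.06 over 0.23 to 0.45 and from -0.68 over -0.54 to -0.34, a difference of -0.79 ± 0.14 (adjusted p = 2.82e-05). Cox7b, a complex IV subunit, ran from 0.19 over 0.49 to 0.96 and from -0.47 over -0.27 to -0.18, a difference of -0.81 ± 0.14 (adjusted p = 3.39e-05). None of these 3 overlapped between the sexes. The ubiquitous Cox4i1 differed by -0.35 ± 0.11 (adjusted p = 0.0172), Cox5b by -0.45 ± 0.10 (adjusted p = 0.000731) and Cox7a2 by -0.47 ± 0.12 (adjusted p = 0.00254). The brown fat forms Cox7a1 and Cox8b differed by -1.29 ± 0.36 (adjusted p = 0.00604) and -0.95 ± 0.25 (adjusted p = 0.00426). Sdhd differed by -0.58 ± 0.12 (adjusted p = 0.000187), and Atp5g2, a c ring gene of complex V, by -0.46 ± 0.08 (adjusted p = 2.12e-05). The 2 members called higher in males were Cox6a2, the muscle form of subunit 6a (3.1 ± 1.09, adjusted p = 0.0301), and Atp5g3 (0.52 ± 0.18, adjusted p = 0.0288). With the lymphocyte, mammary and muscle scores as covariates their differences were -0.32 and -0.01. In that fit 50 members were called, all lower, and the median over the members was -0.65. The share of all genes called was not computed for it. The mammary score ran from 0.18 to 1.05 in these females and from -3.43 to -2.49 in these males. Those ranges did not overlap, so sex and score cannot be told apart in that fit.

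Cell type markers moved strongly with sex. Of 15 measured mammary epithelium markers 13 were called lower in males (median -3.51), of 15 muscle markers 10 higher (median 2.83), of 10 brown adipocyte markers 7 lower (median -1.63) and of 13 white adipocyte markers 7 higher (median 0.47). The brown adipocyte score ran from -0.00 to 1.00 in females and from -1.70 to -0.55 in males. With that score as a covariate 4 members were called, all lower, the median over the members was -0.09, and 17.1% of all genes were called. Since the ranges did not overlap, sex and score cannot be told apart in this fit. Only 1 slide held both groups, where the median over all subunits differed by -0.32.

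The effect of the diet in WT mice was also compared between the sexes. The interaction of sex and diet was called for 6 members, all higher and all in complex I: Ndufab1, Ndufa12, Ndufb6, Ndufs4, Ndufs5 and Ndufb3. Their values lay between 0.44 and 0.46 on the log2 scale, none passed adjustment (the lowest adjusted p, by limma, was 0.0583 for Ndufab1), and 9.18% of all genes were called (6.04% higher; 1.08% after adjustment). The 6 were 7.23% of the 83 members. Leaving out WT female control diet mouse 3 gave 12 called members.

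Of the measured tissue-restricted isoforms of complex IV, Cox6a2, Cox7a1 and Cox8b were set against marker scores across mice, and Cox6b2 was not. In 24 females Cox6a2 correlated with the muscle score at Pearson r = 0.97 and Spearman rho = 0.886 (permutation test, adjusted p = 2.4e-05 for both), and in 23 males at r = 0.985 and rho = 0.98 (adjusted p = 2.4e-05 for both). Cox7a1 correlated with the brown adipocyte score at r = 0.904 and rho = 0.917 in females (permutation test, adjusted p = 2.4e-05 for both) and at r = 0.798 (adjusted p = 4e-05) and rho = 0.723 (adjusted p = 0.00038) in males. Cox8b did so at r = 0.871 and rho = 0.87 in females and r = 0.934 and rho = 0.925 in males (adjusted p = 2.4e-05 throughout). In all 12 relations were computed with 100000 two-sided resamples, whose smallest p is 1e-05. Without the 2 mice farthest from the median score these r values were 0.927 and 0.983, 0.89 and 0.71, and 0.844 and 0.902, in females and males in that order. Centred on each slide that held more than 1 array they were 0.957 and 0.992, 0.948 and 0.77, and 0.884 and 0.954. Centred on each group of genotype and diet, an alternative chosen after seeing the data, they were 0.968 and 0.986, 0.658 and 0.804, and 0.788 and 0.898 (permutation test within groups, adjusted p = 0.0023 at most), and within single groups they ran from 0.392 to 0.998. The lists hold none of the 3 isoforms. Cox7a1 with the muscle score in males gave r = 0.418 and rho = 0.42 (permutation test, adjusted p = 0.0824 and 0.08), which centring on the groups took to r = 0.54 (adjusted p = 0.0152), and the other 5 relations had adjusted p-values of 0.398 or more.

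**Figure D5:**
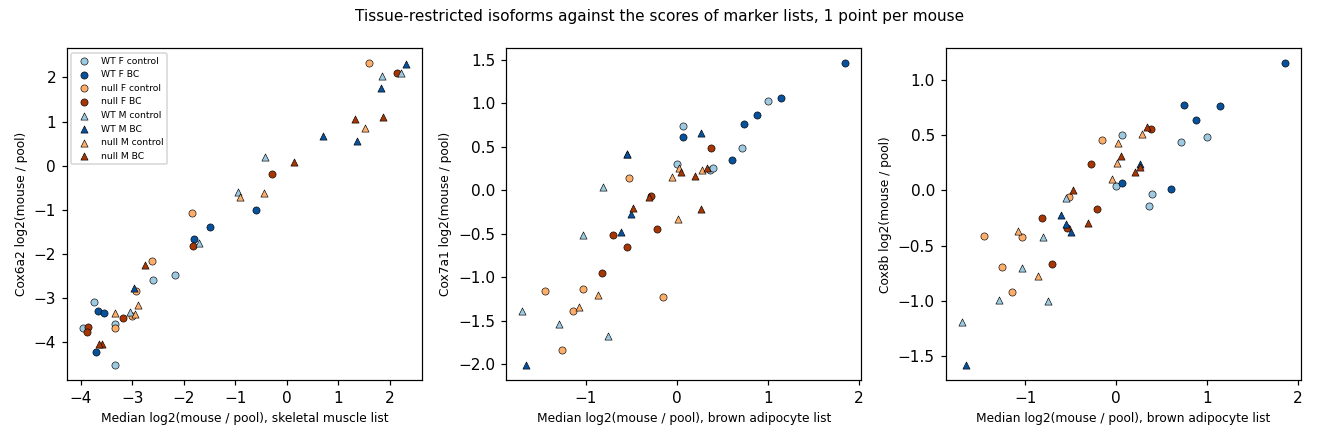
Log2 ratio of Cox6a2, Cox7a1 and Cox8b (vertical) against the median log2 ratio of the muscle or brown adipocyte markers (horizontal), with 1 point per mouse, circles for females, triangles for males and colours for genotype and diet. Points lie along a rising line in each panel, with r between 0.798 and 0.985 within a sex.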

How the data were processed

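The 47 scanner files hold, per the file headers, 2-colour signals extracted with Feature Extraction 9.5.3.1. The deposited Cy5 and Cy3 values are median and background intensities, and the deposited log10 ratio is Cy5 over Cy3. The authors' own filtered values were not used here. Probe positions are of build mm8.

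Median intensities were corrected with normexp (offset 50), loess-normalised within each array and taken as log2 ratios in limma 3.58.1 (R 4.3.3). Control spots and outlier spots were left out, and replicate spots averaged. Probes were kept when, averaged over the arrays of a fit, both channels reached 2 times background, and the brightest probe stood for a gene (13146 genes for females, 12959 for males, 13120 for all 47 arrays). Females and males were fitted separately, and all 47 arrays for comparisons of sex. Calls used an unadjusted p under 0.01, with Benjamini-Hochberg adjustment over all kept probes beside it. Members and gene lists were chosen with earlier results of these data known. Named genes were core subunits, isoform pairs, the 3 called members with the largest rise and fall in the diet, genotype and sex comparisons, Ucp1 and Ppargc1a, and other genes were named after their values were seen. The fit was tested on simulated data. Each array is 1 mouse. Alternatives covered background, normalisation, slide, replicate number, covariates, probes and left-out mice. The share of all genes called was computed only in the reported fits and in alternatives chosen after seeing the data.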

Additional observations from a re-analysis of the deposited data

Results flagged for a closer look

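A mouse standing apart was looked for in 288 sets of values in a group, each of a gene or of a median over subunits. Of these sets 8 (2.78%) held one, all of a gene, where chance gives about 1 in 20. Cox7a1 in Bcmo1-null control diet female 1 was 0.14, against -1.13 in the nearest mouse. Cox7c in WT BC diet male 1 was 0.96, against 0.31. Ndufa11 in Bcmo1-null control diet male 1 was 3.21, against -0.00. In Bcmo1-null control diet male 3 Ndufa12 was -0.44 (nearest -0.05), Sdhd -0.37 (nearest -0.14) and Uqcrc2 -0.33 (nearest 0.00). Ndufs1 in Bcmo1-null BC diet male 3 was -0.11 (nearest 0.09), and Sdhc in Bcmo1-null BC diet female 1 was -0.54 (nearest -0.16).

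An unadjusted interaction test of limma called the diet effect different between female genotypes for Ndufa12 (0.44), Ndufb5 (0.43) and Ndufs4 (0.47). These were 3.61% of the members, against 2.57% of all genes. Between the sexes in WT mice the same test called it different for Ndufab1 (0.44), Ndufa12 (0.46), Ndufb6 (0.44), Ndufs4 (0.46), Ndufs5 (0.45) and Ndufb3 (0.46). That was 7.23% of the members, a smaller share than the 9.18% of all genes. No such difference passed adjustment.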

How the results depend on the processing

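Median centring in place of loess gave 46 for diet in WT females (2 reported), 1 for diet in Bcmo1-null females, 43 for the interaction in females, 34 for genotype in females on control diet, 34 for sex and diet, 0 for diet in Bcmo1-null males, and 1 for genotype in males on either diet. It also turned the median over the members for genotype in females on BC diet to 0.20 (reported -0.02), and brought Cox7a1 with muscle in males to r = 0.53, as centring on the groups brought it to 0.54. No background correction gave 1 for diet in WT females. The deposited ratio gave 5 for diet in WT females, 3 for genotype in females on BC diet and 12 for sex and diet. Cy5 alone gave 3 and 0 for diet in Bcmo1-null females and males, 3 for genotype in females on BC diet and 3 in males on control diet. The slide as a block gave 7 for genotype in females and 2 in males on control diet, and 10 for sex and diet. All 47 arrays together gave 7 for diet in WT females and 0 for diet in Bcmo1-null males, which averaged probes (0) and the methods' t-test (0) also gave, and that test gave 4 for genotype in males on BC diet. An adjusted p under 0.05 gave 0 for diet in WT females and Bcmo1-null males, 0 for both interactions, 5 and 2 for genotype in females on control and BC diet, and 12 in males on BC diet. The lymphocyte, mammary and muscle scores as covariates gave 0 and 9 for diet in WT and Bcmo1-null females, 9 for the interaction, 48 for genotype in females on control diet, and 1 and 2 in males on control and BC diet, and turned Cox6a2 and Atp5g3 between the sexes to -0.32 and -0.0073. Chosen after seeing the data, leaving out the 2 muscle-rich arrays gave 7 and 7 for diet in WT and Bcmo1-null females, 17 for the interaction and 40 for genotype on control diet, and the brown adipocyte score gave 1 and 2 for genotype in females on control and BC diet, 3 in males on control diet and 4 for sex. The causes were not tested.

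With the replicate number as a replicate block, counts were 1 and 0 for diet in Bcmo1-null females and males and 3 for genotype in males on BC diet, while diet in WT females had 2 and genotype in females on control diet had 17. The numbers were not treated as pairs, since in no comparison did every pair's deviations correlate above 0.1.

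Leaving out 1 mouse at a time gave 0 to 5 for diet in WT females, 0 to 2 in Bcmo1-null females, 2 to 11 for the interaction in females, 10 to 38 and 3 to 7 for genotype in females on control and BC diet, 0 to 1 for diet in WT and in Bcmo1-null males, 0 to 0 for the interaction in males, 2 to 7 and 4 to 9 for genotype in males on control and BC diet, 36 to 47 for sex and 4 to 12 for sex and diet. Without Bcmo1-null control diet female 1 the interaction had 11. Of the named genes' values under an alternative, 5605 stayed on their side of the threshold, 166 gained a call, 116 lost one and 2 reversed. Direction was compared only where either fit made a call.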

Other observations

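Mitochondrially encoded subunits were outside the name rule, and probes named COX2 and ND4L were measured, the first of which the array's annotation places on chromosome 1 (chr1:24569175-24569234, mm8), so that it may read a nuclear copy. Neither was called for diet or genotype in either sex. COX2, a catalytic subunit of complex IV, differed by -0.27 ± 0.18 (SE, limma, adjusted p = 0.685) between Bcmo1-null and WT females on control diet, and ND4L, a complex I subunit, by -0.26 ± 0.19 (adjusted p = 0.752). Between WT males and females on control diet ND4L differed by -0.57 ± 0.20 (adjusted p = 0.031) and COX2 by -0.26 ± 0.19 (adjusted p = 0.314).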
